A study of Mus musculus with 12 samples.

Results

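Colon intestinal subepithelial myofibroblasts (ISEMFs) lacking the microRNAs miR-143 and miR-145 (KO) were compared with wild-type (WT) ISEMFs after exposure to lipopolysaccharide (LPS). The comparison used 6 of the 12 arrays in the series: the lines KO4, KO10 and KO15, labelled null for this microRNA cluster, and the lines WT5, WT7 and WT13, labelled wild type for it, each hybridised once after 24 h with 1 ug/mL LPS. The arrays were chosen by genotype and treatment labels and by no measured value. The comparison itself was chosen with earlier results of these data known. The other 6 arrays hold the same 6 lines without LPS, again 3 KO and 3 WT. They entered the normalisation, the probe filter, the choice of probe and the estimate of spread behind the p-values. Beyond that they serve only to compare the genotype difference with and without LPS. All lines grew in one serum medium with insulin, transferrin and EGF, per the labels. Whether each line was derived from its own animal is not stated in the labels. The p-values therefore describe variation among the lines as cultured, some of which may be technical.

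ISEMFs are contractile stromal cells under the gut epithelium that lay down matrix and secrete growth factors and cytokines towards the epithelium. LPS, an outer membrane component of Gram-negative bacteria, is sensed through TLR4 and switches on NF-kB, chemokine, cytokine and interferon-response genes in such cells. MiR-143 and miR-145 are made from one cluster, are abundant in smooth muscle and myofibroblasts, and lower the output of messenger RNAs that carry their seed sites, many of them coding for cytoskeletal proteins, growth factor receptors and transcription factors.

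The 6 LPS arrays had median unnormalised signals of 122.2 to 136.1 and detected 42.5% to 44.7% of probes. Of 20 fibroblast and myofibroblast markers on the array, 17 were detected on all 6 arrays, and of 23 contractile genes with probes, 19 were. For epithelial markers this held for 5 of 20, for endothelial markers for 5 of 17, for enteric glial and neuronal markers for 3 of 11 and for mesothelial and Cajal cell markers for 6 of 10. Epcam, Vil1, Pecam1, Vwf, Gfap, S100b and Kit were detected on none of the 6. Members of the same lists detected on all 6 included Krt8, Krt18, Krt19, Krt20, Eng, Esam, Flt1, Sox10, Ngfr, Uchl1, Upk3b and Upk1b. Macrophage and leukocyte markers were detected on all 6 arrays for 12 of 22 (among them Lyz2, Fcer1g, Laptm5 and Cd14), while Ptprc and Itgam were detected on none. The summed linear level of the 16 leukocyte markers tested was 3234 to 10890 in KO lines, with KO4 lowest, and 6456 to 8644 in WT lines, so the genotypes overlapped. Of these 16 markers 2 had a positive difference between KO and WT lines and none was called in limma, with a median of -0.30 with LPS and -0.22 untreated (log2), and none was without overlap. The WT13 array stood apart: its mean correlation with its group was 0.9869, against 0.9901 to 0.9933 on the other 5, and it lay at -30.97 on the first principal component of the 6 arrays (39.6% of the variance), the others at -0.11 to 11.92. Xist was low on KO10 (4.36) and WT13 (4.34) and high on the other 4 arrays (9.96 to 10.35), so each genotype held 1 line of that kind.

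After LPS, KO lines had higher transcript levels of single genes of several kinds. Among them were the growth factor genes Mdk (midkine), Bmp4, Hgf and Fgf10 and the matrix genes Tgfbi, Lama1 and Col24a1. The eosinophil chemoattractant gene Ccl11 and the complement inhibitor gene Serping1 were also higher in KO lines. KO lines had lower levels of the interferon-inducible GTPase gene Gm4951, the pro-apoptotic gene Pmaip1, the homeobox gene Gbx2 and the chromosome neighbours Nme7 and Atp1b1. Of 11060 genes tested with limma, 36 (0.325%) passed an adjusted p under 0.05, 25 of them higher in KO lines (0.226%) and 11 lower (0.0995%). A gene that passed is referred to as called. Differences of at least 2-fold were seen for 15 of the 36. Over all genes the median difference was 0.0084 log2 units, 52.1% of differences were positive, and 1198 genes had an unadjusted p under 0.05. The 3 KO and 3 WT arrays did not overlap for 1462 genes (13.2%), among them all 36 called genes. Of the 3238 kept probes without a single gene symbol, 0 were called in limma in either direction (280 had an unadjusted p under 0.05).

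The fit took its spread from all 12 arrays. With the 6 LPS arrays alone, 7 genes were called, and with those arrays also normalised alone 3 were (Mdk, Pmaip1 and Gm4951). With KO4 left out 27 genes were called, with KO10 6, with KO15 17, with WT5 9, with WT7 14 and with WT13, the array that stood apart, 15. Mdk, Pmaip1, Gm4951, Gbx2 and Nme7 were called in each of these 6 fits. Of the other 31 genes, 8 were called in none of the 6 (Cdkn1c, Fgf10, Ggct, Mfsd7a, Mmp16, Spire1, Stard6 and Tmem176b), and the direction of all 36 was the same in all 17 alternatives run. On the slide the KO arrays sat at positions D, E and F and the WT arrays at A, B and C, and genotype and position cannot be told apart.

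**Figure D1:**
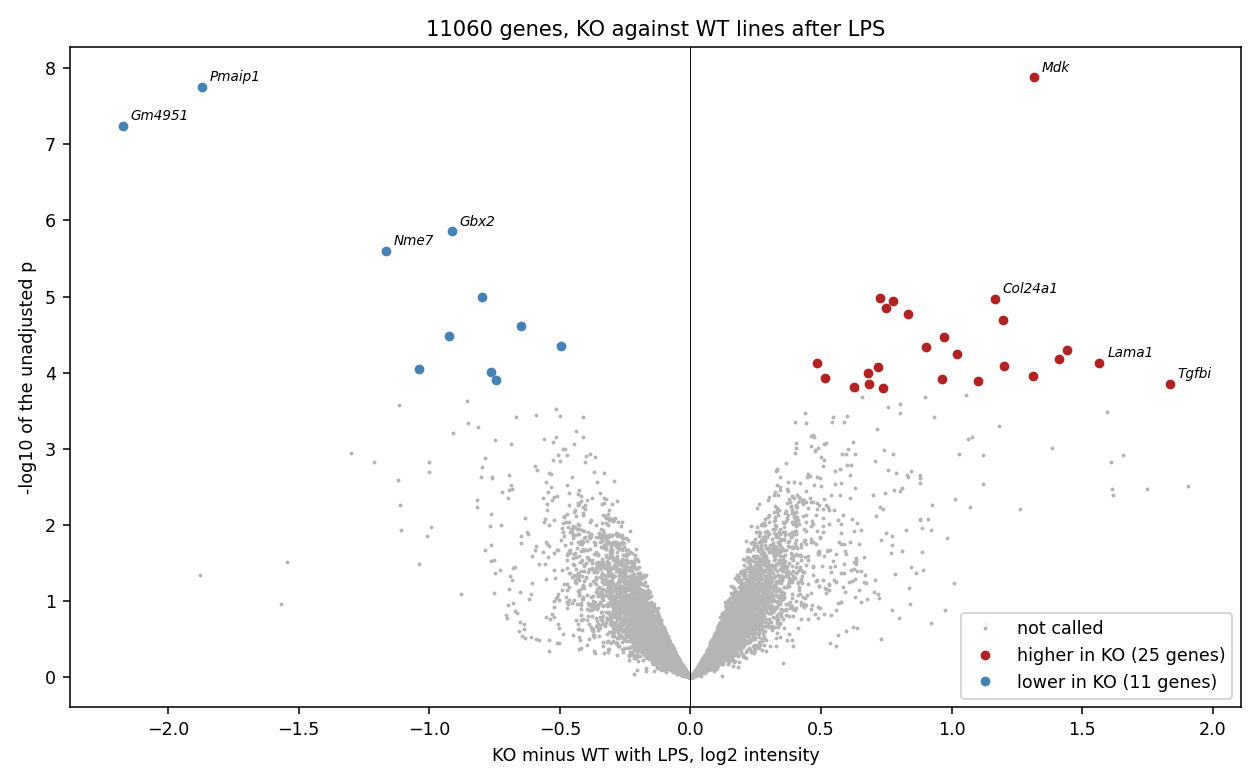
Difference between KO and WT lines after LPS (x axis, log2 intensity) against -log10 of the unadjusted limma p (y axis) for 11060 genes. Red points are the 25 called genes higher in KO lines and blue points the 11 lower ones; Mdk, Pmaip1 and Gm4951 lie apart at the top.

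Among growth factor ligands, Mdk showed the smallest p of all genes. Mdk encodes midkine, a heparin-binding growth factor. Its level was 8.71, 8.43 and 8.58 (log2 intensity) in KO4, KO10 and KO15, against 7.22, 7.28 and 7.27 in WT5, WT7 and WT13. All KO lines lay more than 1 unit above all WT lines, a difference of 1.31 (SE 0.10, adjusted p = 9.77e-05), or 2.49-fold. Bmp4, a bone morphogenetic protein that the gut mesenchyme secretes, stood at 9.93, 10.59 and 10.55 in KO4, KO10 and KO15, against 9.24, 9.15 and 8.44 in WT5, WT7 and WT13. The genotypes did not overlap, with KO4 the lowest KO line and WT13 the lowest of all (difference 1.41, SE 0.24, adjusted p = 0.0361). Left-out fits gave differences of 1.16 to 1.63 for Bmp4, called in 1 of 6.

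Hgf encodes hepatocyte growth factor, the ligand of the Met receptor on epithelial cells. It was at 7.27, 7.75 and 7.54 in KO4, KO10 and KO15, against 6.65, 6.51 and 6.49 in WT5, WT7 and WT13, a difference of 0.97 (SE 0.15, adjusted p = 0.0254). Fgf10, a mesenchymal ligand of the epithelial receptor Fgfr2, was at 11.22, 11.26 and 11.33 in the KO lines against 10.74, 10.60 and 10.43 in the WT lines, which gave 0.68 (SE 0.12, adjusted p = 0.0408). The 3 KO lines lay close together for Fgf10 and all above the WT lines. Slit3, a guidance ligand of Robo receptors, averaged 8.14 ± 0.15 in KO and 7.31 ± 0.11 in WT lines (SD, n = 3 each; difference 0.83, adjusted p = 0.0173). Of 26 stromal growth factor genes tested, these ligands Mdk, Hgf and Fgf10 were higher and none was lower. A positive difference was seen for 13, and the median was 0.02, with the other sign in 3 of the 17 alternatives. Over all genes 0.226% were called higher, 0.0995% lower and 52.1% were positive, the background for this and every further list. The lists were chosen with earlier results of these data known. Of 20 genes of BMP signalling, Bmp4 was the 1 called, 13 were positive and the median was 0.07. The next by p were the BMP antagonist gene Chrd at 0.77 (adjusted p = 0.131) and the receptor gene Bmpr1a at 0.42 (adjusted p = 0.234), both without overlap between genotypes.

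Promoter sequences of RefSeq (GRCm38.p6, 250 bases before the transcript start) were found for 21 of the 36 called genes, 28 windows in all. They are shown for the growth factor genes that were higher and were matched (Bmp4, Fgf10, and Hgf with the first of its 2 windows), and for the 2 genes in which a searched motif occurred (the window with the match). Searched on both strands were the AP-1 element TGANTCA, the GAS element TTCNNNGAA, and the kappaB and CArG elements by name; capitals mark a match.
Bmp4, chr14:46390670-46390919, minus strand: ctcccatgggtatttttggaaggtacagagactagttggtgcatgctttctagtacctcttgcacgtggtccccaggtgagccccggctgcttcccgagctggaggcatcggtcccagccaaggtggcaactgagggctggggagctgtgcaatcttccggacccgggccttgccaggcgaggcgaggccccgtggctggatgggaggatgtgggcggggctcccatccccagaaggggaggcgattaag
Hgf, chr5:16553245-16553494, plus strand: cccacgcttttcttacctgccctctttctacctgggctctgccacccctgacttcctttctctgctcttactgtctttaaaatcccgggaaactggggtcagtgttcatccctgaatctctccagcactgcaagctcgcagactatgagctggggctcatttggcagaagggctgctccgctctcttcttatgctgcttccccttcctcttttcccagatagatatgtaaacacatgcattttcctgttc
Fgf10, chr13:118714449-118714698, plus strand: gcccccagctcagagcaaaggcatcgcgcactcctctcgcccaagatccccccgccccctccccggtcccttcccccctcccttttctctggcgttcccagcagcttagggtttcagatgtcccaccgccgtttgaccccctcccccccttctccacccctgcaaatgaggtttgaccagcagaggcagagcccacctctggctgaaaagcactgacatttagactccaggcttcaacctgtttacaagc
Tmem176b, chr6:48841375-48841624, minus strand: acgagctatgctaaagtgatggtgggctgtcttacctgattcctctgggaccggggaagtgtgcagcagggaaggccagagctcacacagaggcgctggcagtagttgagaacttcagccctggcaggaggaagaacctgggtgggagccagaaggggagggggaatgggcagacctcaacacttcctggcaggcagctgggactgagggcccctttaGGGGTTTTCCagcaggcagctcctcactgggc
Rtkn, chr6:83136834-83137083, plus strand: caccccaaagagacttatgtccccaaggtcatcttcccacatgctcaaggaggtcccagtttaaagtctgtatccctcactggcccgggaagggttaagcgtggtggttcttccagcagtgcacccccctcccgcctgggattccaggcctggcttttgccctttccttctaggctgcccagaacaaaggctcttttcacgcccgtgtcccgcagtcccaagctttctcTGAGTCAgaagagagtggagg
The kappaB element occurred in 1 of the 28 windows, in 1 of the windows of Tmem176b at 32 to 23 bases before the start, and in 7.25% of all 32851 promoter windows of this length. AP-1 occurred in 1 of 28, in 1 of the windows of Rtkn at 21 to 15 bases before the start, and in 6.75% of all windows. The pattern TGANTCA reads the same on both strands, so this 1 match was read on both. The matched windows of Tmem176b and Rtkn each precede a transcript start that lies inside the gene, downstream of its annotated start. GAS occurred in 0 of 28 and in 7.02% of all, and CArG in 0 of 28 and in 1.47% of all. These counts describe letters in these windows and do not bear on binding.

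Among the called genes higher in KO lines, the largest difference was at a matrix gene. Tgfbi, a secreted matrix protein first described as induced by TGF-beta, was at 8.23, 7.93 and 7.12 in KO4, KO10 and KO15, against 5.90, 6.17 and 5.70 in WT5, WT7 and WT13. Every KO line was above every WT line, but the KO lines spread by over 1 unit (difference 1.83, SE 0.34, adjusted p = 0.0459). A second Tgfbi probe gave 0.76 and was not called. Lama1, the laminin alpha-1 chain of basement membranes, was at 6.07, 7.05 and 6.42 in KO4, KO10 and KO15, against 4.67, 5.54 and 4.63 in WT5, WT7 and WT13. Only the WT7 array detected it among WT arrays, so the difference of 1.57 (SE 0.27, adjusted p = 0.0380) rests on a level near background in WT. Col24a1, a minor fibrillar collagen, was at 6.62, 6.69 and 6.23 in the KO lines against 5.22, 5.47 and 5.37 in the WT lines (difference 1.17, SE 0.16, adjusted p = 0.0140). Its 2 other probes gave 1.03 and 0.23.

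Mmp16, a membrane-bound matrix metalloprotease, averaged 7.61 ± 0.08 in KO and 7.09 ± 0.03 in WT lines (SD, n = 3 each; difference 0.51, adjusted p = 0.0441). Of 31 laminin and matrix glycoprotein genes, 2 were higher (Lama1 and Tgfbi), 19 were positive and the median was 0.13. The fibulin gene Fbln1 came next at 0.64 (adjusted p = 0.0512). Of 20 collagen chains, 1 was higher, 14 were positive and the median was 0.13, with Col11a1 at 0.54 (adjusted p = 0.0852) and Col7a1 at 0.33 (adjusted p = 0.230) next. Of 24 metalloproteases and inhibitors, Mmp16 was the 1 called. Plaur, the urokinase receptor gene kept in that list, was at -0.67 (adjusted p = 0.0778) and Adamts7 at 0.50 (adjusted p = 0.179). Among 20 genes of TGF-beta ligands, receptors and response, Tgfbi was the 1 called; Tgfbr2 was at 0.44 (adjusted p = 0.0778) and the co-repressor gene Ski at 0.38 (adjusted p = 0.250). No gene was called among 13 integrins, where Itgav was at -0.29, Itga11 at 0.66 and Itgb5 at 0.25.

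The complement, CC chemokine and LPS-sensing lists each held 1 gene that was higher in KO lines. Serping1, the C1 inhibitor gene that restrains complement and contact activation, was at 9.78, 10.04 and 9.32 in KO4, KO10 and KO15, against 8.35, 8.53 and 7.93 in WT5, WT7 and WT13. The genotypes were apart by 1.44 (SE 0.24, adjusted p = 0.0305), and a second probe gave 1.45. Ccl11, which encodes the eosinophil chemoattractant eotaxin, was at 7.25, 8.25 and 7.78 in KO4, KO10 and KO15, against 6.51, 6.39 and 6.44 in WT5, WT7 and WT13. The WT lines were nearly equal and the KO lines ranged from 7.25 to 8.25 (difference 1.31, SE 0.23, adjusted p = 0.0431; second probe 1.24). Tlr5, the flagellin receptor, averaged 6.06 ± 0.08 in KO and 5.31 ± 0.18 in WT lines (SD, n = 3 each; difference 0.75, adjusted p = 0.0157).

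**Figure D2:**
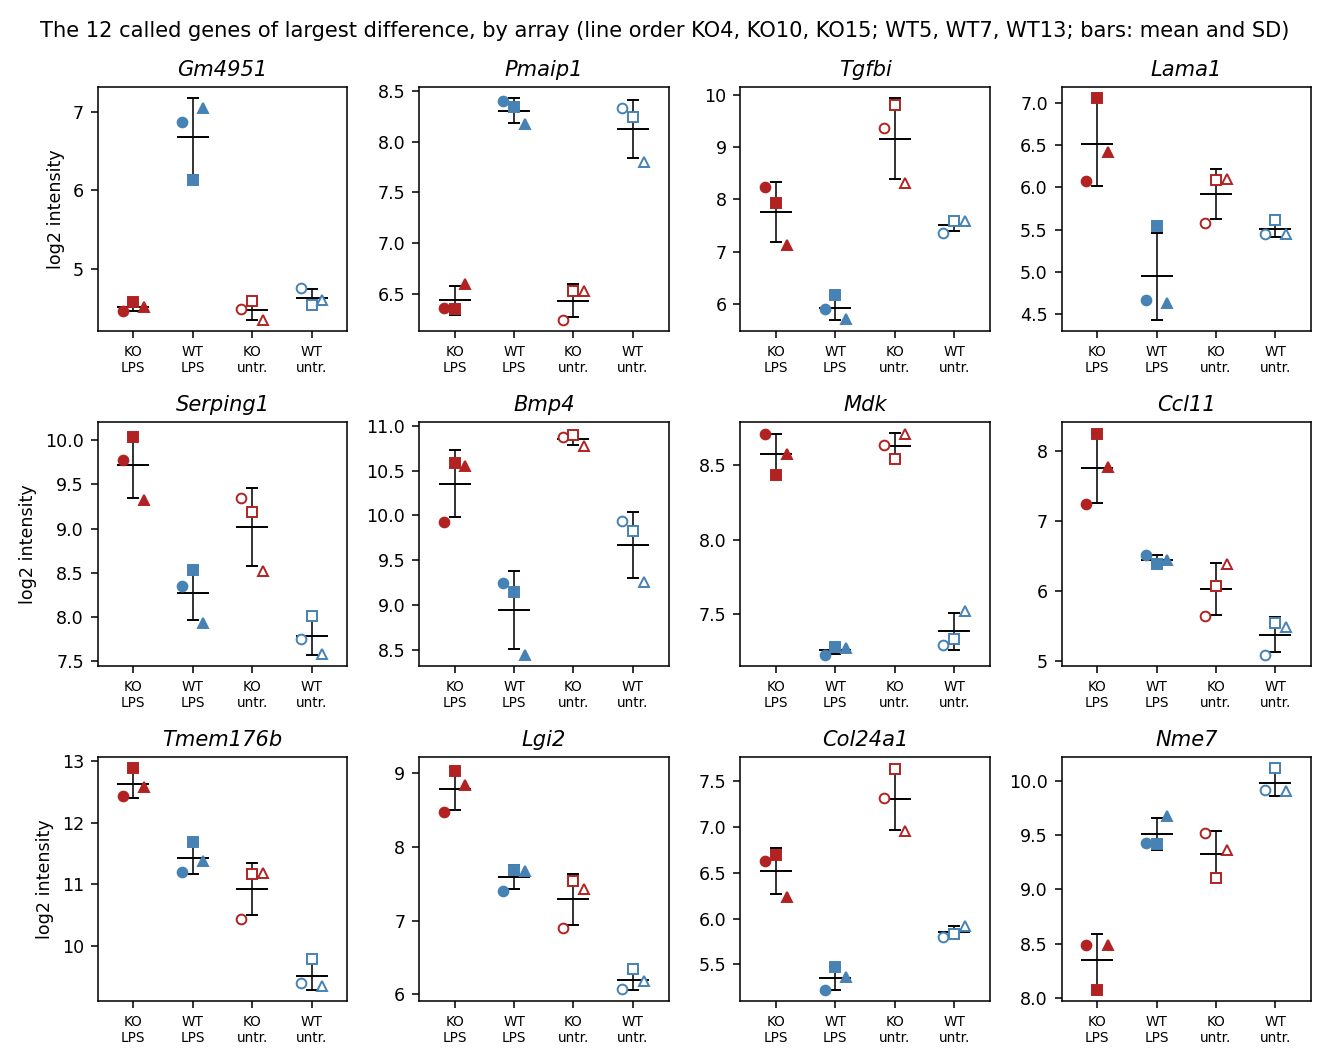
Log2 intensity on every array for the 12 called genes of largest difference, in KO and WT lines with LPS (filled) and untreated (open); circles, squares and triangles are the lines in the order KO4, KO10, KO15 and WT5, WT7, WT13, and bars give the mean and SD of 3. With LPS all KO points lie on one side of all WT points in each panel, and Gm4951 differs from the rest in lying near 4.5 in both untreated groups.

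Other chemokine genes did not pass. Of 16 CC chemokines Ccl11 was the 1 called, 5 were positive and the median was -0.11. Ccl9 (7.27, 9.32 and 8.07 in KO4, KO10 and KO15, against 9.22, 8.57 and 9.51 in WT5, WT7 and WT13) and Ccl5 (difference -0.70, adjusted p = 0.566) overlapped between genotypes. Of 10 CXC and CX3C chemokines none was called; Cx3cl1 was at 0.98 (adjusted p = 0.338), Cxcl9 at -1.04 (adjusted p = 0.417) and Cxcl12 at 0.32. The KO4 array, which had the lowest summed leukocyte level, also had the lowest Ccl9, Ccl5 and Cxcl9 of the 6. With LPS the 16 leukocyte markers tested had a median of -0.30, the same sign as the medians of both chemokine lists. Untreated, the signs differed, with medians of -0.22 for the markers, 0.11 for CC chemokines and 0.20 for CXC and CX3C chemokines. The part of those markers in these values was not tested. The median of the CXC list was -0.10, and turned positive without KO4 (0.23), KO15 or WT5.

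Of 25 interleukins and receptors none was called, 13 were positive and the median was 0.06. Il11, a cytokine of stromal cells, was at 8.99, 10.70 and 10.21 in KO4, KO10 and KO15, against 8.74, 8.33 and 7.997 in WT5, WT7 and WT13 (difference 1.61, SE 0.39, adjusted p = 0.145). Its groups did not overlap, with KO4 close to WT5. The alarmin gene Il33 was at 0.83 (adjusted p = 0.176) and Tslp at -0.41 (adjusted p = 0.368). The acute-phase list had 9 of 10 genes positive and the highest list median, 0.56, against 0.13 in the untreated arrays, yet no member was called. That median ran from 0.21 with the authors' processed values to 0.80 with a detection p under 0.01, and 6 of the 10 genes were detected on all 6 arrays. Serpina3f was closest at 0.80 (SE 0.16, adjusted p = 0.0673), with 5.70, 6.39 and 5.87 in KO4, KO10 and KO15, against 5.36, 5.03 and 5.18 in WT5, WT7 and WT13; Steap4 was at 0.52 (detected on 3 KO and 1 WT arrays) and haptoglobin (Hp) at 0.89 (3 KO and 2 WT arrays). KO10 was highest of the 6 arrays for all 3.

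Of 23 LPS-sensing genes Tlr5, which does not bind LPS, was the 1 called, 12 were positive and the median was 0.03; Tlr6 was at -0.42 and Tab1 at 0.21. Among 18 NF-kB subunits and feedback genes none was called and 0 were without overlap, with Nfkbiz at 0.37, Tnfaip3 at -0.28 and Nfkbia at -0.20. None was called in limma among 15 genes of the CSF and TNF families (Tnfrsf11b 0.53, Tnfaip2 0.30, Cd40 0.67), 13 of prostaglandin synthesis and receptors (Ptges 0.61, Abcc4 -0.35), or 27 of nitric oxide, arginine, itaconate and oxidative defence (Cat -0.41, Srxn1 -0.27, Ass1 -0.42). Ptger2 (0.44, uncalled) was detected on 1 KO and no WT array, so its difference rests on levels near background in both genotypes. The medians of these 5 lists lay between -0.05 and 0.07, and each changed sign in 1 to 3 of the 17 alternatives. Of 14 complement genes Serping1 was the 1 called, 8 were positive, and the median of 0.12 was -0.07 without KO10. C1s1 was at 0.39 (adjusted p = 0.299) and Masp1 at 0.57 (adjusted p = 0.351).

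Gm4951, a gene of the interferon-inducible GTPases that act in cell-autonomous defence, had the largest difference of any called gene. It was at 4.46, 4.57 and 4.51 in KO4, KO10 and KO15, against 6.87, 6.13 and 7.06 in WT5, WT7 and WT13. No KO array detected it and every WT array did, so the level in KO lines is a bound and the gene was at least 3.41-fold lower (fitted difference -2.17, adjusted p = 0.000213). Without LPS no array of either genotype detected it, at 4.49, 4.59 and 4.34 in KO lines against 4.75, 4.54 and 4.59 in WT lines. The genotype difference with LPS minus that without was -2.02 (SE 0.26) and missed the threshold (adjusted p = 0.0601). With the line as a replicate block, which pairs the LPS and untreated array of a line, it passed (adjusted p = 0.0174), and it also passed with an intensity trend (0.0389), with array weights (0.00263) and without WT7 (0.000108). Over all alternatives with that test its adjusted p ran from 0.000108 to 0.934, the highest with the authors' processed values, where the difference was -0.73.

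No other interferon-response gene of the lists passed. Of 12 interferon-inducible GTPases 6 were positive and Gm4951 was the 1 called, while Ifi47 was at 0.42 (adjusted p = 0.432) and Tgtp1 at 0.33 (adjusted p = 0.702). Of 35 interferon-stimulated antiviral genes 7 were positive and none was called, with a median of -0.16 with LPS and 0.31 in the untreated arrays. The list medians of the 6 LPS arrays overlapped, at 7.85, 8.57 and 7.50 in KO4, KO10 and KO15, against 8.40, 8.004 and 8.37 in WT5, WT7 and WT13, and the median difference was -0.02 without KO4. The 16 leukocyte markers had a negative median both with LPS (-0.30) and untreated (-0.22), and their part in these values was not tested. Ifi35 (-0.41, adjusted p = 0.324), Sp100 (-0.52) and Oas1b (-0.28) had the smallest p of that list. Of 20 genes of MHC class I and the immunoproteasome 0 were without overlap, with Psme2 at -0.17, Pdia3 at -0.14 and Psmb10 at -0.17.

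**Figure D3:**
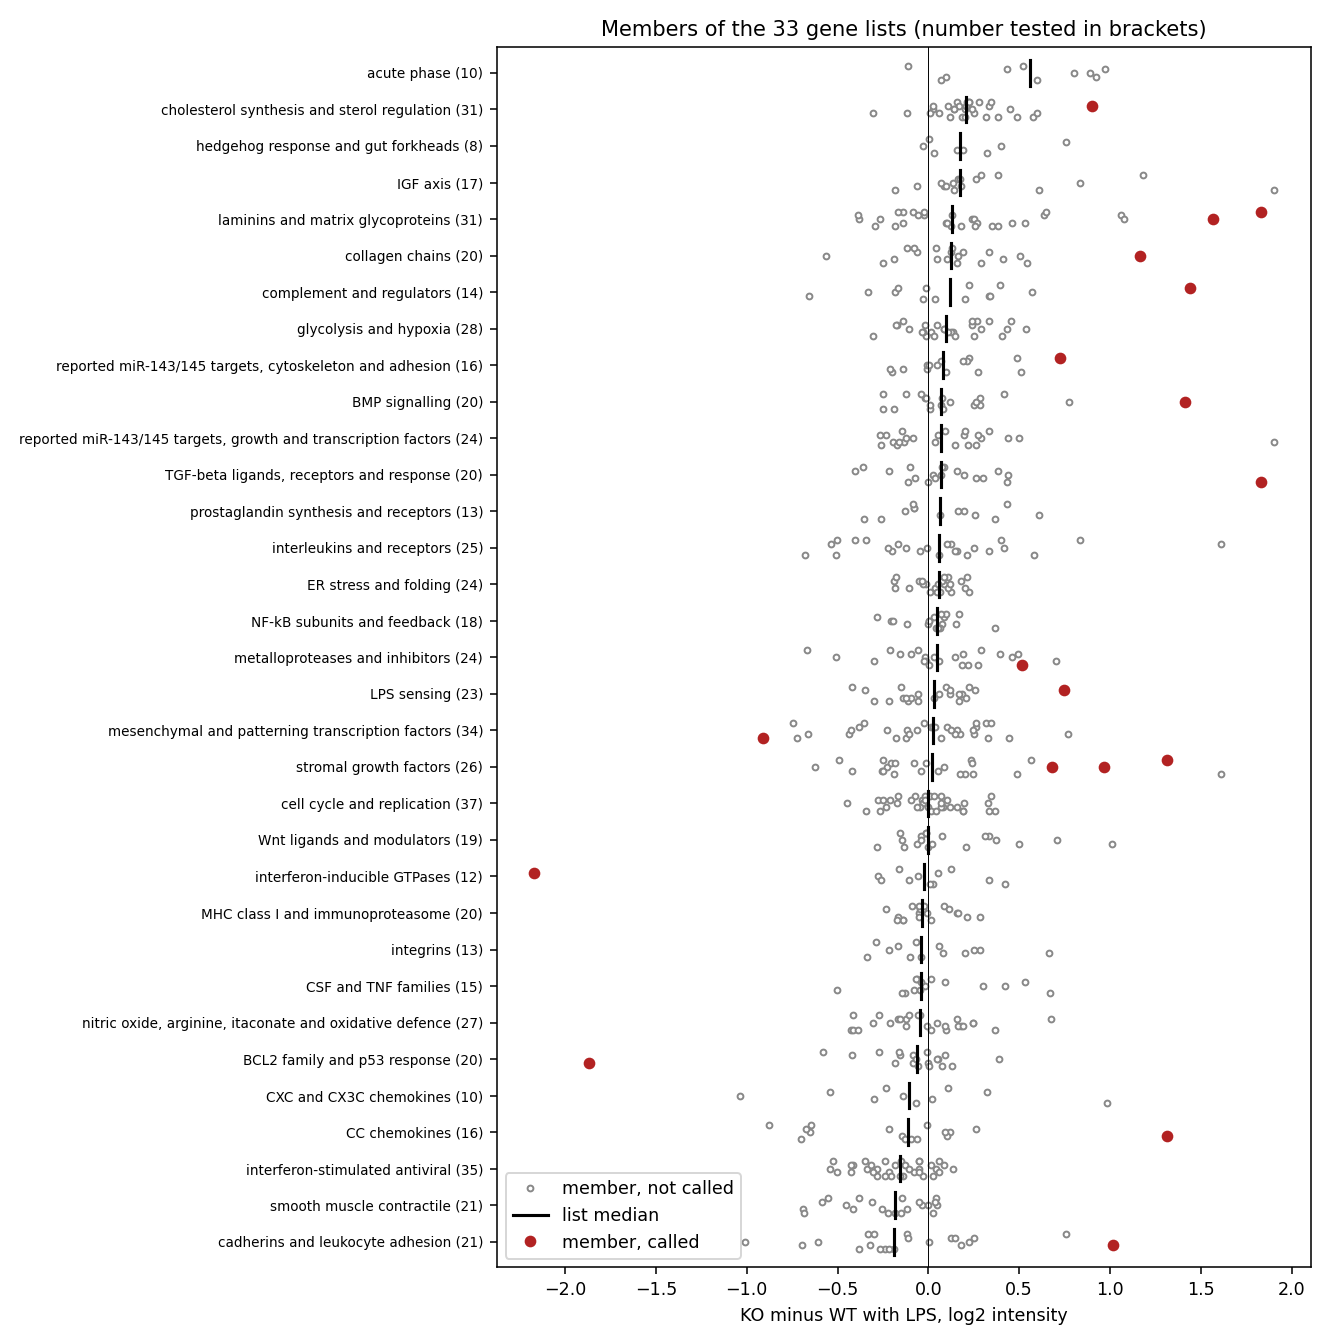
Difference between KO and WT lines after LPS (x axis, log2 intensity) for each tested member of 33 gene lists (rows, number tested in brackets), with list medians as bars and called members in red. The acute-phase list has the highest median (0.56), cadherins and leukocyte adhesion the lowest (-0.19), and most lists centre within 0.2 of 0.

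Pmaip1 encodes Noxa, a BH3-only protein that promotes apoptosis. It was at 6.36, 6.35 and 6.60 in KO4, KO10 and KO15, against 8.40, 8.34 and 8.17 in WT5, WT7 and WT13, a gap of over 1.5 between the closest lines. The difference was -1.87 (SE 0.14, adjusted p = 9.77e-05), and a second probe gave -2.12. Of 20 genes of the BCL2 family and p53 response it was the 1 called, 7 were positive, and Sesn1 (0.39) and Bok (-0.27) came next. Cdkn1c, a cyclin-dependent kinase inhibitor in none of the lists, averaged 12.05 ± 0.20 in KO and 11.09 ± 0.21 in WT lines (SD, n = 3 each; difference 0.96, adjusted p = 0.0441). None of 37 cell cycle and replication genes was called in limma, with Ccnd1 at 0.37, Cdkn1b at 0.33 and Cdk6 at 0.33. Poli, a translesion DNA polymerase, was higher by 0.72 (adjusted p = 0.0392).

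Of the reported targets of the cluster, 1 was called. Rtkn averaged 7.70 ± 0.07 in KO and 6.98 ± 0.16 in WT lines (SD, n = 3 each; difference 0.72, SE 0.10, adjusted p = 0.0140), though its second probe gave 0.26. Of 16 targets tested in cytoskeleton and adhesion 11 were positive, with a median of 0.08, and Limk1 (0.51, adjusted p = 0.118) and Fscn1 (0.49, adjusted p = 0.245) were next, both without overlap. Of 24 growth and transcription factor targets 14 were positive, with a median of 0.07 and none called. There Tgfbr2 was at 0.44, Pdgfra at 0.50 (adjusted p = 0.333) and Igfbp5 at 1.90 (SE 0.52, adjusted p = 0.201). Igfbp5, an IGF-binding protein, was at 8.79, 10.58 and 10.43 in KO4, KO10 and KO15, against 8.01, 8.14 and 7.93 in WT5, WT7 and WT13; KO4 lay closer to the WT lines than to KO10 and KO15. Of 17 IGF axis genes 15 were positive and none was called, with Igfbp4 at 1.18 (adjusted p = 0.0909) and Irs1 at 0.29.

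Contractile genes were mostly below WT without any passing the test. Of 21 tested, 4 were positive and the median was -0.18, and it stayed between -0.25 and -0.14 in the 17 alternatives. In 8 of them all KO arrays lay below all WT arrays (Myl9, Kcnmb1, Myh11, Tpm2, Tagln, Csrp1, Smtn and Synm), a share to be read against the 13.2% without overlap in either direction over all genes. Myl9, the regulatory light chain, was at 13.10, 12.92 and 13.10 in KO4, KO10 and KO15, against 13.44, 13.50 and 13.42 in WT5, WT7 and WT13 (difference -0.41, adjusted p = 0.0778). The smooth muscle myosin heavy chain gene Myh11 was at -0.68 (adjusted p = 0.213) and the potassium channel subunit gene Kcnmb1 at -0.59 (adjusted p = 0.168).

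Sterol genes were mostly above WT, and 1 passed. Stard4, a carrier that moves cholesterol between membranes, averaged 9.77 ± 0.16 in KO and 8.87 ± 0.18 in WT lines (SD, n = 3 each; difference 0.90, SE 0.15, adjusted p = 0.0302). Of 31 genes of cholesterol synthesis and sterol regulation 29 were positive, against 52.1% of all genes, and the median was 0.21, between 0.15 and 0.28 in the alternatives. Stard4 was the 1 called; Sc5d, a late enzyme of the pathway, was at 0.60 (adjusted p = 0.0778) and Insig1, a sterol sensor, at 0.58 (adjusted p = 0.194). In 9 members (29.0%) the KO arrays all lay above the WT arrays, against 13.2% without overlap in either direction over all genes. No gene was called among 28 of glycolysis and hypoxia (Car9 0.46, Aldoc 0.54, Pdk1 0.40), or among 24 of ER stress and folding (Chac1 0.22, Ern1 0.20, Creld2 -0.18).

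Among patterning genes, Gbx2, a homeobox transcription factor, was at 5.33 ± 0.15 in KO and 6.25 ± 0.15 in WT lines (SD, n = 3 each; difference -0.91, SE 0.10, adjusted p = 0.00387). It was the 1 called of 34 mesenchymal and patterning transcription factors. Foxc1, which no KO array and every WT array detected, was at least 1.55-fold lower without being called (adjusted p = 0.218), and Twist2 was at 0.77 (adjusted p = 0.332). Of 8 genes of the hedgehog response and gut forkheads 7 were positive, with Gli2 at 0.76 (adjusted p = 0.0712), Cdon at 0.32 and Smo at 0.19. Of 19 Wnt ligands and modulators none was called, with Wnt5a at 0.50 (adjusted p = 0.134), Dkk3 at 0.71 (adjusted p = 0.143) and Ccn5 at 1.01 (adjusted p = 0.237).

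At the cell surface, Cd34, a sialomucin of stromal and progenitor cells, averaged 9.64 ± 0.26 in KO and 8.62 ± 0.15 in WT lines (SD, n = 3 each; difference 1.02, adjusted p = 0.0329). It was the 1 called of 21 cadherin and leukocyte adhesion genes and of 20 fibroblast markers; Cdh4 was at 0.76 (adjusted p = 0.167) and Mcam at -0.69 (adjusted p = 0.215). Emcn, an endothelial sialomucin, was lower, with a difference of -0.74 (adjusted p = 0.0447), detected on 2 of 3 KO and 3 of 3 WT arrays. Igsf11, an immunoglobulin-family adhesion protein, was lower, with a difference of -0.80 (adjusted p = 0.0140), with other probes at -0.36 and -0.79. Fyn, a Src-family kinase, was lower, with a difference of -0.50 (adjusted p = 0.0302), detected on 1 of 3 KO arrays, and its second probe gave -0.16. Tnik, a kinase of the Wnt pathway, was lower, with a difference of -0.65 (adjusted p = 0.0207). Lgi2, a secreted leucine-rich repeat protein, was at 8.48, 9.03 and 8.84 in KO4, KO10 and KO15, against 7.40, 7.69 and 7.67 in WT5, WT7 and WT13 (difference 1.20, SE 0.18, adjusted p = 0.0186).

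Tmem176b, a membrane protein, was at 12.42, 12.88 and 12.58 in KO4, KO10 and KO15, against 11.20, 11.69 and 11.38 in WT5, WT7 and WT13, a difference of 1.20 (SE 0.21, adjusted p = 0.0391). The other called genes that were higher were Fam13c (1.10), the chloride-proton exchanger gene Clcn3 (0.68), the neurexophilin gene Nxph4 (0.78) and the transporter-family gene Mfsd7a (0.48, detected on 3 KO and 2 WT arrays). Ggct, an enzyme of glutathione breakdown, was lower, with a difference of -0.76 (adjusted p = 0.0408).

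Chromosome 18, which carries the Mir143 and Mir145 genes, held 7 of the 36 called genes. That is 7 of 284 tested genes (2.46%), against 29 of 10760 (0.270%) on other chromosomes. Higher in KO lines were Stard4, Poli, the lymphatic factor gene Ccbe1 (0.74, adjusted p = 0.0489) and the actin nucleator gene Spire1 (0.63, adjusted p = 0.0489). Lower were Gm4951, Pmaip1 and Stard6, another lipid-transfer protein of the START family (5.36 ± 0.13 in KO and 6.29 ± 0.01 in WT lines, SD, n = 3 each; difference -0.93, adjusted p = 0.0254). In RefSeq gene order (GRCm38.p6), Gm4951 was the 16th tested gene before the microRNA locus, Ccbe1 and Pmaip1 were the 20th and 21st after it, Spire1 the 28th, Stard6 and Poli the 37th and 38th, and Stard4 the 128th before it. Ccbe1 and Pmaip1 are neighbours with 0 coding genes between them and differed in opposite directions, and so are and did Stard6 and Poli.

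On chromosome 1, with 5 of 588 tested genes called (0.850%), Nme7 and Atp1b1 are also neighbours with 0 coding genes between them, and both were lower in KO lines. Nme7, of the nucleoside diphosphate kinase family, was at 8.48, 8.07 and 8.48 in KO4, KO10 and KO15, against 9.43, 9.42 and 9.68 in WT5, WT7 and WT13 (difference -1.16, SE 0.14, adjusted p = 0.00562). Of its 6 other probes 2 gave -1.02 and -0.92, and 4 lay between -0.17 and 0.14. Atp1b1, the beta subunit of the sodium-potassium pump, averaged 7.08 ± 0.40 in KO and 8.12 ± 0.14 in WT lines (SD, n = 3 each; difference -1.04, adjusted p = 0.0401).

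Different probes of a called gene did not always give the same value. Of the 36 genes, 20 had more than 1 kept probe. Of their 34 other probes 31 had the same sign as the probe used, 14 had less than a 0.5 share of its difference or the opposite sign, and 7 were themselves called among all kept probes. Of the 36 probes used, 30 were called over all kept probes, and those of Ccbe1, Clcn3, Emcn, Mfsd7a, Mmp16 and Spire1 were not (adjusted p = 0.0510 to 0.0610). The other probes of Spire1 gave 0.06, -0.16 and 0.13, against 0.63 on the probe used. Hgf had 0.39 on its second probe, and Ggct -0.85, -0.40 and -0.22 on its others. Close to the probe used were those of Pmaip1, Serping1, Ccl11, Bmp4 (1.08), Fgf10 (0.63 and 0.72), Clcn3 (0.69 and 0.73), Ccbe1 (0.90), Fam13c (1.07 and 0.77) and Mmp16 (0.45). The second probes of Mdk (0.85) and Slit3 (0.56) gave smaller differences in the same direction.

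**Figure D4:**
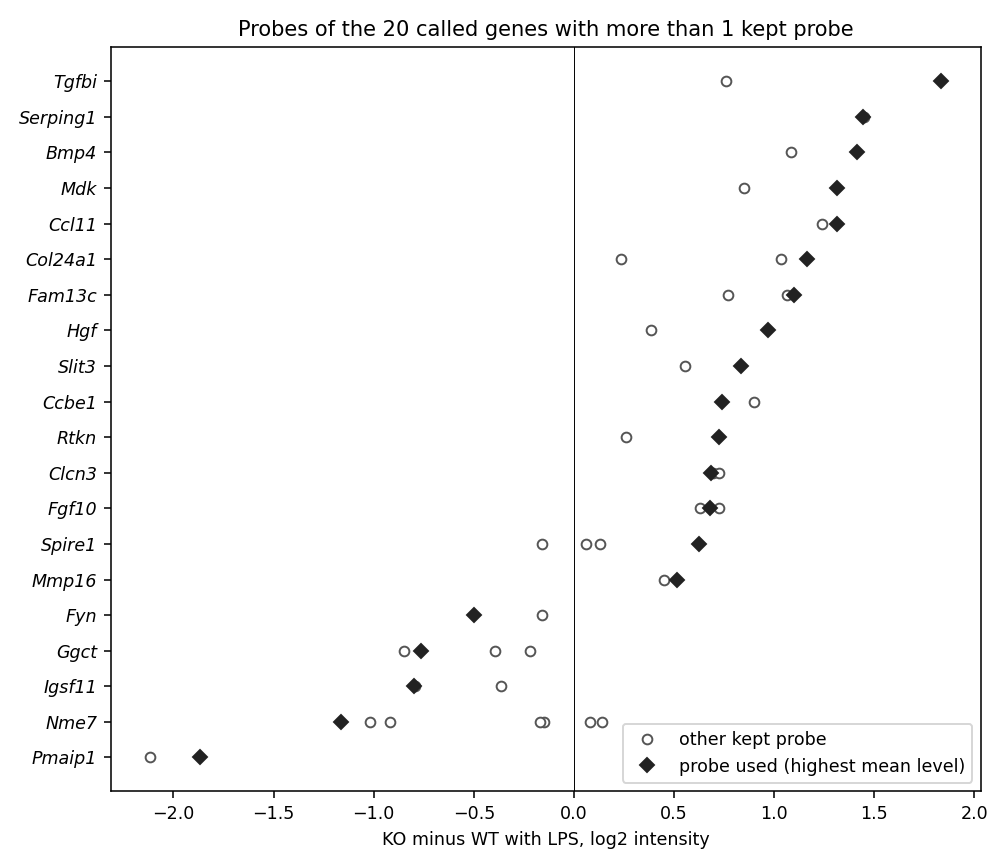
Difference between KO and WT lines after LPS (x axis, log2 intensity) for each kept probe of the 20 called genes with more than 1. Diamonds are the probes used and open circles the others; those of Nme7 and Spire1 straddle 0, and those of Pmaip1 and Serping1 lie close together.

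To see whether these differences were also present without LPS, each called gene was set beside its difference in the untreated arrays of the same 6 lines. All 36 had the same sign untreated, in 33 the untreated KO and WT arrays did not overlap either, and in 27 the untreated difference was the smaller in size. The same shares over all genes are not given here. The untreated arrays also entered the estimate of spread behind the calls, so these counts are not independent of how the 36 were chosen. Gm4951 was detected on no untreated array, so its untreated sign rests on background. The median size of the 36 differences was 0.92 with LPS and 0.75 untreated, where the genes were chosen on the LPS arrays. The difference between the LPS and untreated differences, tested in the same limma fit, was called for 0 genes over all 11060 (392 had an unadjusted p under 0.05), and for 1, Gm4951, in the alternatives named above. Mdk was at 8.64, 8.54 and 8.71 in untreated KO4, KO10 and KO15, against 7.29, 7.33 and 7.52 in untreated WT5, WT7 and WT13, a difference of 1.25. The widest gaps besides Gm4951 were at Lama1 (1.57 with LPS and 0.42 untreated), Ccl11 (1.31 and 0.66), Ggct (-0.76 and -0.14), Nxph4 (0.78 and 0.21) and Nme7 (-1.16 and -0.65), each with an adjusted p of 0.949 for the difference.

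The mean level of both genotypes was higher on the LPS arrays than on the untreated arrays for 13 of the 36 genes (among them Ccl11, Tmem176b, Lgi2, Hgf and Serping1), and lower for 20 (among them Tgfbi, Bmp4, Cdkn1c, Nme7 and Atp1b1). Ccl11 averaged 7.76 and 6.45 with LPS in KO and WT lines, and 6.03 and 5.37 untreated in KO and WT lines. Tgfbi averaged 7.76 and 5.93 with LPS in KO and WT lines, and 9.16 and 7.52 untreated in KO and WT lines. The LPS arrays shared a slide and the untreated arrays another, which means that treatment and slide cannot be told apart in these levels.

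**Figure D5:**
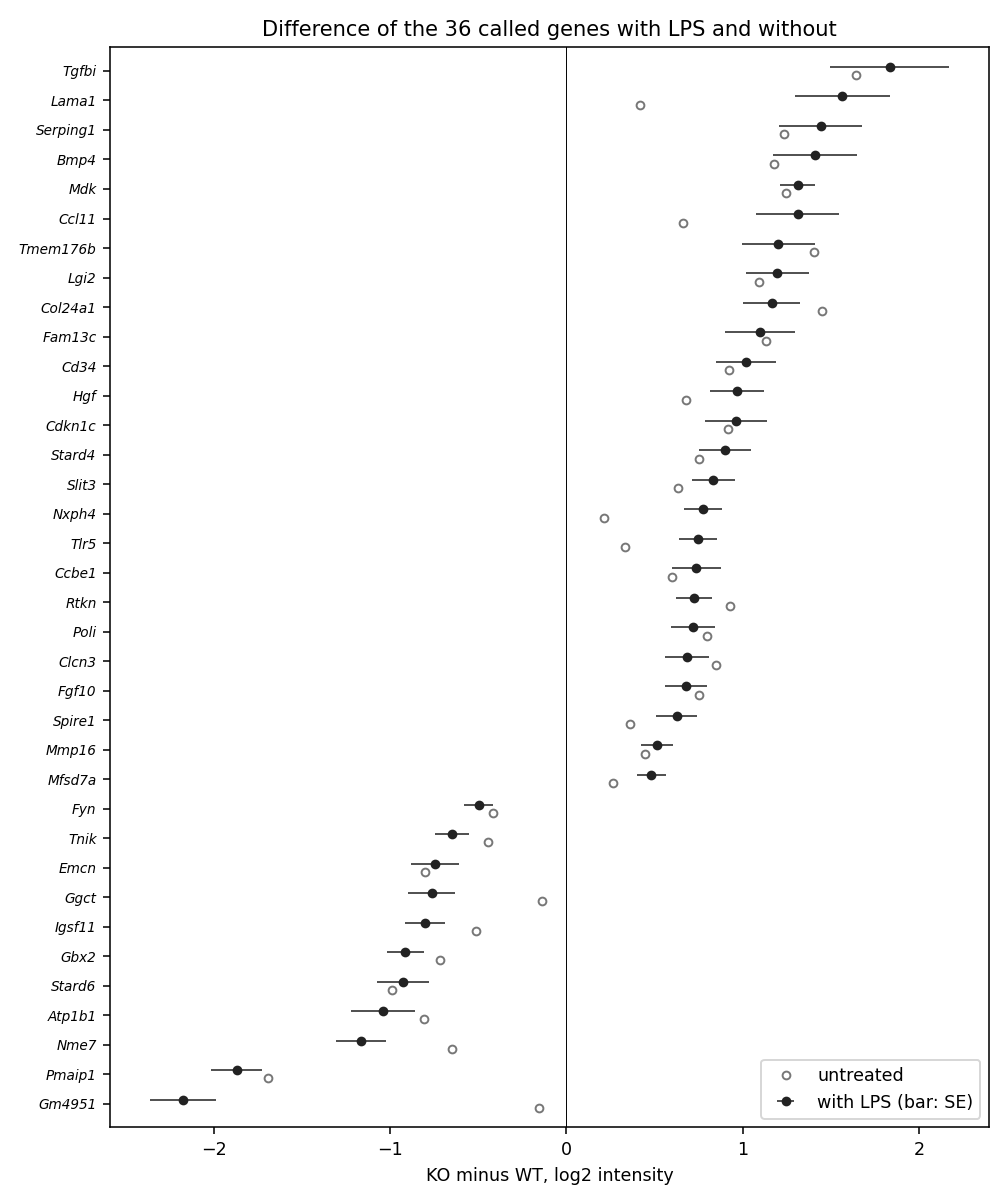
Difference between KO and WT lines (x axis, log2 intensity) for the 36 called genes (rows) with LPS (filled, bar: SE) and untreated (open). All pairs lie on the same side of 0, and Gm4951 and Lama1 show the widest distance between them.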

How the data were processed

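Each sample was hybridised to 1 Illumina mouse bead array. Per the file headers, the main table holds an unnormalised linear intensity (mean bead signal) for each probe, and the authors deposited a detection p-value beside it. The authors' processed intensity table (column medians 122.4 to 122.5, rank correlation 1 with the signals, linear and not centred) served as an alternative. The submitters' processing notes list BeadStudio, with no version. The number of columns left unused was 0. Of 45281 probes 34885 had 1 gene symbol in the platform annotation, 18 several and 10378 none, and Entrez identifiers of 11044 tested genes were found in the RefSeq table of GRCm38.p6, with 0 symbols changed. Its coordinates are printed for promoters only, the build of the array annotation being unknown. Probes of the targeted microRNAs were not analysed here, and the knockout was not checked.

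Normalisation used neqc of limma 3.58.1 in R 4.3.3: background from the detection p-values, offset 16, quantiles, log2. Probes with detection p under 0.05 on at least 3 of 12 arrays were kept (21124). A gene took its kept probe of highest mean level. One fit of 4 group means over 12 arrays (lmFit, eBayes, two-sided) gave both tests, with Benjamini-Hochberg adjustment at 0.05 over all genes. Only the KO against WT test with LPS was also run on simulated data. Those data had independent arrays, so the run cannot show the effect of pairing within lines. Where no array of a group detected a probe, the fold is a bound, the brighter mean over the higher of the lowest detected and the probe's own signal. An exact permutation test of 3 against 3 cannot go below 0.1. The number of arrays limits the precision.

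Pairing comes from the labels, in which each line has an LPS and an untreated array. The 2 arrays' deviations from their group means correlated at 0.137 to 0.52 within lines. The main fit treated these 2 arrays as independent in both tests, and only the random block alternative took their pairing into account. No 2 arrays held identical values. Every called gene is named, the 12 of largest difference with every array, and per list the called members and the 3 of smallest p. The comparison and the 33 gene lists and 6 marker lists were chosen with earlier results of these data known. Lists are described by counts and medians, with no test of the list. Alternatives were scaling to the 75th percentile, the processed values, offset 50, detection p under 0.01 or no filter, line as a random block, an intensity trend, array weights, the mean of a gene's probes, the LPS arrays alone, and each LPS array left out.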

Additional observations from a re-analysis of the deposited data

How the results depend on the processing

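Of the 36 called genes, 25 higher and 11 lower, 20 (12 higher) were called with 75th-percentile scaling and 17 (9 higher) with no filter. Neither setting called any other gene. Array weights gave 101 (63 higher, 38 lower), the 36 and 65 others. The 6 LPS arrays alone gave 7 (3 higher, 4 lower), 6 of them among the 36. Normalised alone they gave 3 (1 higher, 2 lower), all among the 36. Leaving out 1 array gave 6 to 27 (1 to 17 higher, 5 to 10 lower), of which 5 to 20 were among the 36. The replicate block of paired arrays (line as a random block, correlation 0.193) gave 43, with all 36 among them. The processed values gave 33 (26 of them among the 36), offset 50 gave 38 (32) and detection p under 0.01 gave 37 (36). An intensity trend gave 46 (31 among the 36) and the mean of probes 29 (26). The count for the difference between LPS and untreated was 0, and 1 with the replicate block, 1 with the trend, 1 with array weights and 0 to 1 with an array left out. No called gene changed direction, while the medians of 15 lists did in at least 1 alternative. Over 131 named genes and the alternatives, 1917 values kept their side of the threshold, 272 lost and 30 gained a call. Most named genes were uncalled, and all 272 losses fell on the 36 called genes. Each called gene passed in 5 (Fyn, Mfsd7a and Tgfbi) to 17 (Mdk, Pmaip1 and Gm4951) of the 17 alternatives. The causes were not tested. Levels near background limit Gm4951, Lama1, Emcn, Fyn and Mfsd7a, which were not detected on all 6 LPS arrays. Other called genes were detected on all 6 but lay low in 1 genotype. Nxph4, Tlr5 and Col24a1 averaged 5.12, 5.31 and 5.35 in WT lines, and Gbx2 and Stard6 5.33 and 5.36 in KO lines. The lowest detected level on these arrays was 4.83 to 4.93. In the alternatives their smallest differences were 0.25, 0.26, 0.45, -0.33 and -0.34, in that order.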

Other observations

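Genes outside the 36 passed the test in some alternatives, and some of them are named here after their values were seen. Igfbp4, Akap12 and Trbv13-2 were called without KO15, Plaur without WT5, Nrap without KO10, Mc5r and Spon2 without WT7, and Dbndd2, Sirpa and Sostdc1 without WT13. AW551984 was called with the 6 LPS arrays alone. In all, 47 genes differed by at least 1 log2 unit, of which 15 were called.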
